A study of Mus musculus with 18 samples.

Results

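The ciliary genes 1700007K13Rik, also named Pierce1, and Drc7 stood out after irradiation of differentiated mouse cells. They were chosen from the measured values: 1700007K13Rik for its rise in differentiated cells 4 h after irradiation, and Drc7 for its rise in differentiated cells at both times. Each gene was read by 1 probe of the array, so the members are 2 of the 37246 array features and 2 of the 34289 genes or transcripts that these features name. The differences by which they were chosen are therefore given as a description with no test. Their differences between the unirradiated cell types share the ED arrays with that choice, as does the change of 1700007K13Rik at the early time. These are described too. The tests below concern stem cells and the other genes of the cilium.

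The cells were early-passage mouse embryonic stem cells, grown with LIF and without feeder cells (ES), and isogenic cells differentiated from them by withdrawal of LIF for about a week or until stem cell markers were lost (ED). ED cells were not directed to any lineage, so the label names no defined cell type. Both were left unirradiated or were exposed to 10 Gy, and total RNA was taken 15 min later (from ES cells ESRE, from ED cells EDRE) or 4 h later (ESRL, EDRL). Each of the 6 groups held 3 single-colour Agilent arrays, 18 in all. The labels do not say whether replicates were separate cultures, so p-values measure only the spread between these samples, which may be technical. In bulk RNA, fewer cells that express a gene and less RNA per cell cannot be told apart.

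Motile cilia and sperm flagella are built on doublet microtubules. Pierce1, the protein of 1700007K13Rik, sits inside those doublets and is needed for left-right patterning of the mouse body, and its gene is also known as a target of p53, the transcription factor that answers DNA damage. Drc7 is a subunit of the nexin-dynein regulatory complex, which links neighbouring doublets and governs the dynein motors, and mice without it have abnormal sperm flagella.

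According to RefSeq on build GRCm38.p6, 1700007K13Rik lies on the minus strand at chr2:28462001-28466324 and Drc7 on the plus strand at chr8:95055103-95078141. The span of 1700007K13Rik overlaps that of Mrps2, a mitochondrial ribosomal protein gene, by 374 bases, while the start used for Mrps2 in the promoter table is 1742 bases from that of 1700007K13Rik. The 250 bases printed for 1700007K13Rik therefore lie inside the span of Mrps2 as well. The 250 bases before the start of each gene are shown because both genes differed after irradiation. Capitals mark matches, on either strand, to the p53 consensus half-site, the GC box and the X-box consensus, the element bound by the RFX factors that drive ciliary genes.
1700007K13Rik, chr2:28466325-28466574, minus strand: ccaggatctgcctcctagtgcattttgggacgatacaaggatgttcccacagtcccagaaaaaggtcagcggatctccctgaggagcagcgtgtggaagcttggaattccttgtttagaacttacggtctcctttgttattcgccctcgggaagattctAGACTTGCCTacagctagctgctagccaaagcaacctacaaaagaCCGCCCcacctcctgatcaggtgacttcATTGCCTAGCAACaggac
Drc7, chr8:95054853-95055102, plus strand: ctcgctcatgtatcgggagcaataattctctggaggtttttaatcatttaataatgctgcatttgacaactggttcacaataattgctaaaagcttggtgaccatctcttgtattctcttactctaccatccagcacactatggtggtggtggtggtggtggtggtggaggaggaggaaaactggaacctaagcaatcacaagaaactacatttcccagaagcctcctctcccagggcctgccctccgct

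In 1700007K13Rik the half-site AGACTTGCCT lay 91 to 82 bases before the start, the GC box (GGGCGG, read here as CCGCCC) 46 to 41 bases before it, and the X-box match ATTGCCTAGCAAC 18 to 6 bases before it. A second half-site, GGGCTAGTTT, lay at bases 31 to 40 after the start. At least 1 half-site was present in 8.36% of the 32851 promoter windows of the same length, and 2 or more in 0.359%. Drc7 had no half-site in its window, and its 2 X-box matches, GTTACCATAGAGAC and GTTCTTGGAGGGT, both lay within the first 43 bases after the start. At least 1 X-box match was present in 34.7% of all windows and 2 or more in 6.56%, and the GC box was present in 35.7%. The FOX site GTAAACA (3.65% of windows), the E2F sites TTTCCCGC (1.07%) and TTTGGCGC (0.514%) and CCAAT (37.4%) were not found in either window. The X-box form was widened after the windows had been seen, and a match to letters is a description, not a bound site.

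The arrays differed in brightness. The 75th percentile of signal, to which each array was scaled, was between 2806 and 4268 on 15 arrays, 1952 on ESRL replicate 1, 875 on EDRE replicate 2 and 1155 on EDRE replicate 3. These last EDRE arrays stand apart: 24.4% and 23.8% of their spots carried an outlier mark, where the other 16 arrays had 3.33% to 11.1%. Probes well above background made up 49.5% and 55.5% there and 63.3% to 86.1% elsewhere. The members' values and the counts of called ciliary genes and p53 targets in EDRE are therefore also given without them. That fit has 1 EDRE array, and its spread is borrowed from the remaining groups. No scan time held an irradiated group together with its own control, so scan time and irradiation cannot be told apart. Of 9 tested pluripotency markers, 8 were lower in ED than in ES cells, beside 26.7% of all genes. Their median log2 difference was -7.62 against -0.19 for all probes. Sox2, one of them, fell by 2.37 but stayed well above background on all ED arrays. Of 9 tested fibroblast markers 8 were higher in ED, beside 14.9% of all genes. The remaining 1, Thy1, was lower, its probe being well above background on 0 of 3 ED arrays. The level of that list summed per array was 486 to 609 on ED arrays and 61.9 to 74.9 on ES arrays.

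1700007K13Rik was bright in stem cells, dim in unirradiated differentiated cells and bright again in differentiated cells 4 h after irradiation. In ES cells its processed signal was 4307, 4271 and 4133 on the 3 arrays. The ESRE arrays read 5212, 4535 and 4640. The ESRL arrays read 5445, 12138 and 13154, the last from a spot that the scanner software marked as non-uniform and that was left out. Within stem cells every irradiated array was thus brighter than every unirradiated one before scaling. In ED cells the signal was 108, 102 and 86.4, and in EDRL cells it was 2542, 3058 and 3096. The EDRL arrays did not overlap those of any other group: they lay above all ED and EDRE arrays and below all stem cell arrays. In EDRE cells the signal was 104 on replicate 1, and on replicates 2 and 3 it was 9.11 and 7.36, not well above background.

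Drc7 spanned a narrower range and was well above background on all 18 arrays. Its processed signal was 402, 437 and 324 in ES cells, 357, 297 and 277 in ESRE cells and 215, 354 and 382 in ESRL cells. In ED cells it was 97.0, 45.8 and 44.3. The stem cell arrays overlapped each other and lay above all ED arrays. After irradiation of ED cells the signal was 179, 74.5 and 115 in EDRE and 142, 122 and 181 in EDRL. Before scaling, then, all EDRL arrays exceeded all ED arrays, whereas EDRE replicate 2 lay below ED replicate 1.

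**Figure D1:**
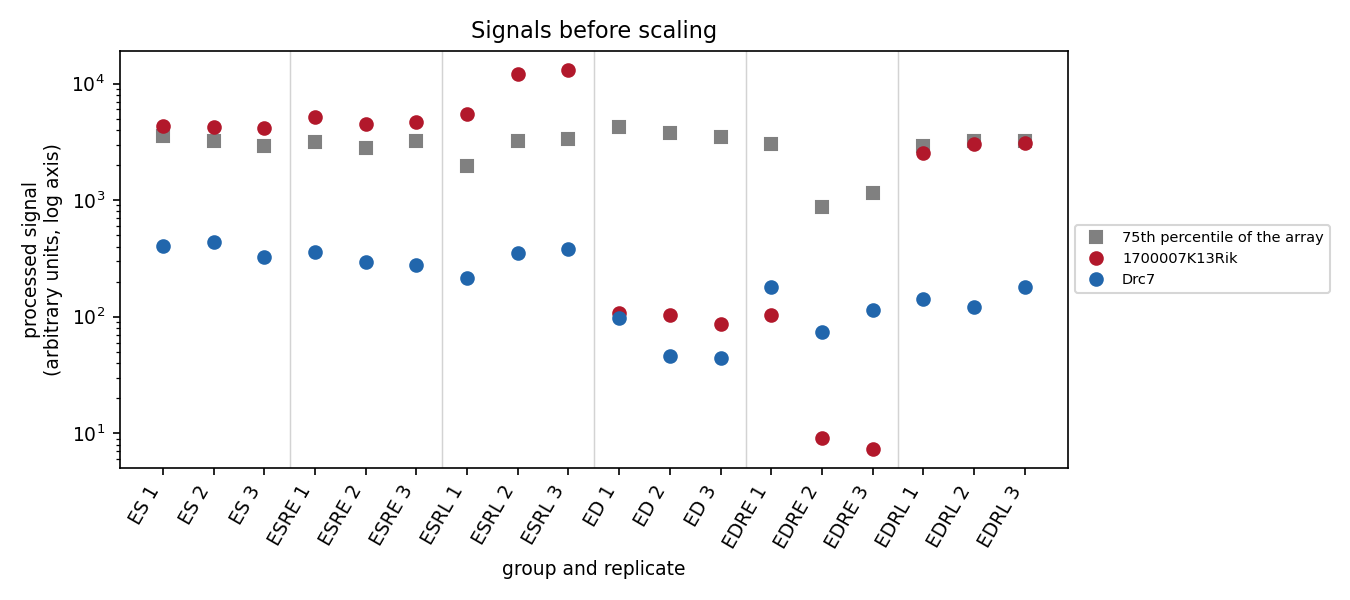
Processed signal of 1700007K13Rik and Drc7 and the 75th percentile of each array, on a log axis, for the 18 arrays in order of group and replicate. The percentile of EDRE replicates 2 and 3, at 875 and 1155, is below that of every other array, and 1700007K13Rik is at 108 or lower on all ED and EDRE arrays and at 2542 or higher on the rest. Signals of different probes are not comparable with each other.

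Levels were then expressed as log2 of the signal relative to the 75th percentile of the same array. On this scale 1700007K13Rik was 0.40 ± 0.11 in ES (SD, n = 3), 0.65 ± 0.11 in ESRE (n = 3) and 1.69 ± 0.30 in ESRL (n = 2). It was -5.28 ± 0.07 in ED, -6.25 ± 1.25 in EDRE and -0.11 ± 0.08 in EDRL (each n = 3). The order from high to low was ESRL, ESRE, ES, EDRL, ED and EDRE. ESRE and ES did not overlap, with a lowest ESRE array at 0.53 and a highest ES array at 0.50, but their difference did not pass the test given below. ED and EDRE overlapped, since EDRE replicate 1 was at -4.87 and replicates 2 and 3 at -6.59 and -7.29.

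On the same scale Drc7 was -3.06 ± 0.15 in ES, -3.17 ± 0.03 in ESRL and -3.30 ± 0.21 in ESRE (SD, n = 3 each), and these groups overlapped. It was -3.66 ± 0.39 in EDRE, -4.41 ± 0.29 in EDRL and -6.04 ± 0.50 in ED. The highest EDRE array, at -3.33, lay within the range of ESRE, whose lowest array was at -3.54. EDRE and EDRL were separated only narrowly, by -4.08 on the lowest EDRE array against -4.15 on the highest EDRL array. ED lay below every other group, its highest array being at -5.46.

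**Figure D2:**
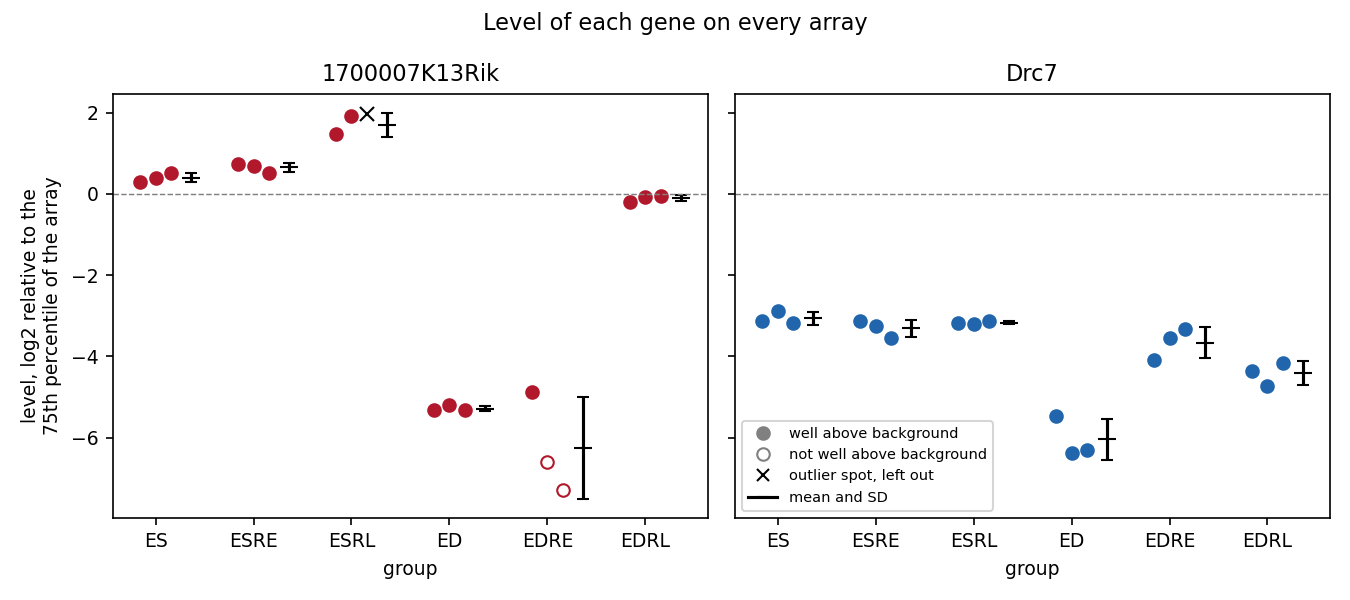
Level of 1700007K13Rik (left) and Drc7 (right), as log2 of the signal over the array's 75th percentile, by group. Points are arrays, open points are not well above background, the cross is a spot left out as an outlier, and bars give the mean and SD of the points used. EDRL is raised over ED for both genes, from -5.28 to -0.11 for 1700007K13Rik and from -6.04 to -4.41 for Drc7.

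The first comparison asked how irradiation changed each gene in differentiated cells. 1700007K13Rik was 5.17 log2 units higher in EDRL than in ED cells, 36.1-fold, the second largest difference among the 25412 probes tested. This value chose the gene and is not tested. It had the largest difference among probes that exceeded background on each of the 6 arrays, and the next were NM_007955 at 3.84, Kcnj4, a potassium channel gene, at 3.66 and AK009242 at 3.60. Drc7 was 1.63 higher in EDRL than in ED cells, 3.09-fold, which placed it 280th of the 25412 probes. That difference was also among those that chose the gene. Across all genes tested in EDRL, 1.4% were called higher and 0.254% lower, and 44.6% of probes measured on all 6 arrays had groups that did not overlap. These shares are 326 and 59 of 23209 genes. The counts were 140 and 10 with normexp background correction and 33 and 0 with scan time as a random block. With only the 2 groups compared they were 580 and 256. A gene was called where its log2 difference exceeded 1 in size with an adjusted p under 0.05 in limma.

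At 15 min it was Drc7 that stood higher. Drc7 was 2.38 log2 units higher in EDRE than in ED cells, 5.22-fold, the 11th largest difference of 24490 probes, again a value by which it was chosen. Relative to the array medians in place of the 75th percentiles it was 2.53 higher, and with EDRE replicates 2 and 3 left out together, on replicate 1 alone, 1.96 higher. The neighbours of Drc7 in order of size, among called genes above background throughout, were Rcan2, an inhibitor of calcineurin, at 2.38, Cabyr, a calcium-binding protein of the sperm flagellum, at 2.29, and AK021106 at 2.26. In EDRE 2.23% of genes were called higher and 2.97% lower (500 and 665 of 22404), and without EDRE replicates 2 and 3 the counts were 393 and 198 of 26438. The balance turned with the processing as well, to 2438 higher and 140 lower with normexp background correction, 1356 and 533 with arrays set to their medians and 1457 and 640 in the authors' value table. Nearly all calls were lost with scan time as a random block, which left 0 higher and 1 lower. With only the 2 groups compared, 0 genes were called in either direction. In the full fit 25.4% of probes measured on all 6 arrays had groups that did not overlap.

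The change of 1700007K13Rik in EDRE is a description too, with no test. Its comparison shares the ED arrays with the contrast that chose the gene, which favours low ED values. The log2 difference from ED was -0.97 (SE 0.42). This value rests on replicates 2 and 3: without them the difference was 0.41, from 1 EDRE array. With normexp background correction it was 0.95. Without replicate 1 it was -1.66, from the arrays on which the probe was not well above background. No direction can be given for this gene at 15 min.

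Early and late ED arrays could be compared within 1 scan time, which held the 3 EDRL arrays and EDRE replicate 1. There 1700007K13Rik was at -0.11 in EDRL and -4.87 on the EDRE array, a difference of 4.76. Drc7 was at -4.41 in EDRL and -4.08 on the EDRE array, a difference of -0.33. These values have 1 array on one side and no test. With scan time as a random block, the EDRL difference of 1700007K13Rik was 4.28, and those of Drc7 were 2.11 in EDRE and 1.72 in EDRL.

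**Figure D3:**
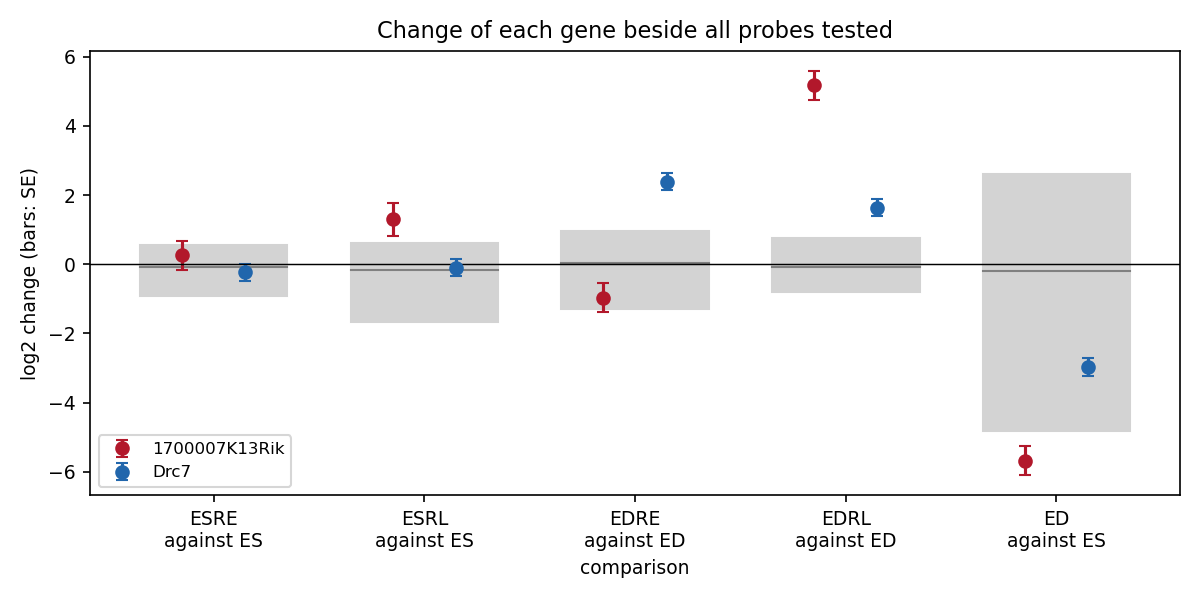
Log2 change of 1700007K13Rik and Drc7 in each comparison, with the SE of the limma fit, beside grey boxes that span the 5th to 95th percentile of all probes tested and a line at their median. 1700007K13Rik leaves the box upward in EDRL (5.17) and ESRL (1.30) and downward in ED against ES (-5.68), and Drc7 leaves it upward in EDRE (2.38) and EDRL (1.63).

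The second comparison asked for the same changes in stem cells, whose arrays played no part in choosing the genes. In ESRE 1700007K13Rik was 0.26 higher than in ES (SE 0.42, limma adjusted p = 0.976) and the difference of Drc7 was -0.24 (SE 0.25, adjusted p = 0.918), so that neither passed. Of all genes 0.29% were called higher and 0.173% lower in ESRE, and 35% of probes measured on all 6 arrays had groups that did not overlap, as did those of 1700007K13Rik.

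In ESRL 1700007K13Rik was 1.30 log2 units higher than in ES, 2.46-fold (SE 0.47, n = 2 against 3, limma adjusted p = 0.103). The groups did not overlap, and the spot left out lay on the same side, at 1.98. The SE came from the spread of this probe over all 6 groups, in which EDRE was widest. Without EDRE replicates 2 and 3 the same difference had an SE of 0.15 and passed (adjusted p = 4.05e-04), and in the authors' value table it was 1.70 and passed (adjusted p = 0.0351). With all spots kept it was 1.39 (adjusted p = 0.053), and with scan time as a random block the adjusted p was 1.00. Within the scan time that held ESRE replicates 1 and 2 and ESRL replicates 2 and 3, the 1 usable ESRL array was 1.19 above the ESRE mean. Drc7 was within the spread of ES in ESRL, with a log2 difference of -0.10 (SE 0.25, adjusted p = 0.851). In ESRL 0.691% of genes were called higher and 6.9% lower (177 and 1766 of 25599), and 34.1% of probes measured on all 6 arrays had groups that did not overlap. Those counts were 551 and 1032 with arrays set to their medians, 29 and 48 with normexp, 450 and 828 in the authors' value table and 0 in both directions with scan time as a random block.

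The third comparison set the unirradiated cell types side by side. 1700007K13Rik was 51.2-fold lower in ED than in ES cells (log2 difference -5.68, SE 0.42), and Drc7 was 7.86-fold lower (-2.97, SE 0.25). Both were lower on 3 of 3 ED arrays. Under the alternatives tried the log2 differences were -5.88 to -5.03 and -3.26 to -1.95. The ED arrays also entered the contrasts that chose the genes, which favours genes that are low in ED. Both differences are therefore given as a description with no test. In this comparison 14.9% of genes were called higher and 26.7% lower, and 71.2% of probes measured on all 6 arrays had groups that did not overlap. The balance between higher and lower calls turned with the scaling. It was 3902 against 6998 of 26228 genes as given, 6971 against 4876 with arrays set to their medians, 5670 against 5342 with quantile normalization and 6574 against 4543 of 24791 in the authors' value table. The mean level of 1700007K13Rik in EDRL, -0.11, was below the lowest ES array, at 0.29.

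The other subunits of the nexin-dynein regulatory complex were read beside Drc7. Of 11 listed subunits 9 were on the array and 7 were tested in irradiated ED cells. In EDRE 1 rose and 1 fell, beside 2.23% and 2.97% of all genes. In EDRL limma called 0 of 7, beside 1.4% of all genes called higher and 0.254% lower. At an unadjusted p under 0.05, 1 of the 7 was higher and 2 were lower in EDRL. Over all probes 3543 of 25412 in EDRL and 6375 of 24490 in EDRE were under that p, in either direction. Fbxl13 rose in EDRE by 1.21 (from -4.66 ± 0.38 to -3.46 ± 0.44, SD, n = 3 each, SE 0.33, limma adjusted p = 0.0431) and was 1.18 higher in EDRL (adjusted p = 0.0868). Iqcd fell by 1.68 in EDRE (SE 0.36, adjusted p = 0.0199), where it was well above background on 2 of 3 arrays, and its difference in EDRL was -0.68 (adjusted p = 0.448). Without EDRE replicates 2 and 3, limma called 0 of 8 tested subunits in EDRE, with 1 higher and 2 lower at an unadjusted p under 0.05.

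The remaining subunits were below the fold required for a call at both times. Drc1, a scaffold subunit of the complex, differed by 0.35 in EDRE (adjusted p = 0.494) and by 0.39 in EDRL (adjusted p = 0.622). Drc3 differed by 0.49 and 0.20 (adjusted p = 0.337 and 0.841), and Gas8, a core subunit also named Drc4, by 0.16 and -0.13 (adjusted p = 0.823 and 0.879), with 1 usable array in ED and 1 in EDRE and the spread taken from the other groups. Iqcg differed by -0.75 and -0.82 (adjusted p = 0.0365 and 0.0401) and Ccdc65, also named Drc2, by -0.34 and -0.64 (adjusted p = 0.181 and 0.0404). The median over the 7 subunits was 0.16 in EDRE and -0.13 in EDRL, against 0.03 and -0.09 for all probes.

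In unirradiated cells 3 of 8 tested subunits were lower in ED than in ES and 1 was higher, 37.5% and 12.5%, near the shares of 26.7% and 14.9% over all genes. Of the lower ones, Drc1 had a log2 difference of -4.81 (adjusted p = 2.38e-09) and Drc3 of -2.57 (adjusted p = 4.12e-06), and the third was Tcte1, also named Drc5, whose probe was well above background on 3 of 3 ES arrays and 0 of 3 ED arrays. The subunit counted as higher was Gas8, with a log2 difference of 1.71 between 1 usable array in each group. That call takes its spread wholly from the other groups and has no replicate check.

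The other structural genes of the axoneme were taken from 3 further lists. Of 12 tested genes for doublet microtubule inner proteins, the class to which Pierce1 belongs, limma called 0 in EDRL, where 0 were higher and 2 lower at an unadjusted p under 0.05. In EDRE it called 0 of 11, with 2 higher and 1 lower at that p, and without EDRE replicates 2 and 3 it called 1 of 14 higher. Their changes in EDRL ran from -1.03 (Saxo2) to 0.36 (Spag8), against 5.17 for 1700007K13Rik, the value by which that gene was chosen. Saxo2 was well above background on 0 of 3 EDRL arrays and Spag8 on 1 of 3 ED arrays, so that neither end of this range is exact. Of 14 tested genes for dynein arms and their assembly, Spag1, an assembly factor, rose by 1.27 in EDRE (adjusted p = 0.0276), a call that was lost without EDRE replicates 2 and 3, when 0 of 16 were called. Lrrc6, another assembly factor, fell by 1.39 in EDRL (adjusted p = 0.00694), where it was well above background on 1 of 3 arrays. Of 11 tested genes for radial spokes and the central pair limma called 0 at either time, and at an unadjusted p under 0.05, 1 was higher and 1 lower in EDRE and 0 in EDRL. Without EDRE replicates 2 and 3, 1 of 12 was called higher in EDRE.

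With the complex included, 0 of 44 tested axoneme genes were called higher and 1 lower in EDRL by limma, where 1 was higher and 5 were lower at an unadjusted p under 0.05. At that p stood 3543 of all 25412 probes tested in EDRL, in either direction. In EDRE 2 were called higher and 1 lower of 43, and without EDRE replicates 2 and 3, 2 were called higher and 0 lower of 50. The latter 2 were an inner protein gene and a radial spoke or central pair gene, not Fbxl13 and Spag1. Of all genes, 1.4% were called higher and 0.254% lower in EDRL, 2.23% and 2.97% in EDRE, and 393 and 198 of 26438 in EDRE without those replicates. The median over the axoneme genes was -0.22 in EDRL against -0.09 for all probes. Many of these genes were dim in ED cells: of 19 inner protein genes on the array, 11 were well above background on all ED arrays and 6 on none. In ED against ES 27 of 56 tested axoneme genes were called lower and 5 higher, 48.2% and 8.93% against 26.7% and 14.9% of all genes, with a median of -0.99 against -0.19 for all probes. Some of the 27 were tested only because they were detected in ES. Saxo1, Dnah2, Hydin and Dnajb13, for example, were well above background on 0 of 3 ED arrays. Their ED levels are not exact, and the difference between these shares was not tested. The balance over all genes in this comparison turned with medians and in the authors' value table, as given above.

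Genes for building and transporting ciliary components were also read. Of 30 tested genes of intraflagellar transport and the BBSome, the complex that carries membrane proteins through the cilium, limma called 0 in EDRL, with 2 higher and 3 lower at an unadjusted p under 0.05. In EDRE Bbs7 fell by 1.16 (limma adjusted p = 0.0497, well above background on 1 of 3 EDRE arrays), 1 of 29 tested, beside 2.97% of all genes called lower. At an unadjusted p under 0.05, 6 of the 29 were higher and 2 lower in EDRE, beside 6375 of all 24490 probes in either direction. Without EDRE replicates 2 and 3, 0 of 30 were called, with 0 higher and 2 lower. In EDRL, where 1.4% of all genes were called higher, 1 of 12 tested ciliogenesis regulators was called. This was Trp73, the p53 family member needed for multiciliated cells, which also stands on the p53 list below. It rose on both of its called probes, by 1.97 (adjusted p = 0.00131) and 1.80 (adjusted p = 0.00171), while its brightest probe, at 1.54, was not called. The called probes were well above background on 3 of 3 EDRL arrays and on 0 of 3 and 1 of 3 ED arrays, so that the ED levels under these differences are not exact. Foxj1, the master regulator of motile cilia, was at -4.70 ± 0.10 in ED and -4.34 ± 0.11 in EDRL and was not called. Trp73 rose in ESRL as well, by 1.96 (adjusted p = 0.00135) and 2.12 (adjusted p = 4.95e-04) on the same probes. Foxj1 rose in ESRL by 1.54 (from -1.51 ± 0.07 in ES to 0.03 ± 0.38, SD, n = 3 each, adjusted p = 9.58e-04). The ESRL calls of both genes were lost with scan time as a random block, under which no gene was called in ESRL.

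Markers of cells that carry motile axonemes were checked in the same fit. Limma called 0 of 8 tested multiciliated cell markers and 0 of 9 tested spermatogenic markers in EDRE or EDRL. Of all genes 2.23% were called higher and 2.97% lower in EDRE, and 1.4% and 0.254% in EDRL. Over all probes 3543 of 25412 in EDRL and 6375 of 24490 in EDRE had an unadjusted p under 0.05, in either direction. At that p, 2 multiciliated markers were higher and 1 lower in EDRL, 0 moved in EDRE, and 0 spermatogenic markers were higher and 1 lower in EDRE. Without EDRE replicates 2 and 3 the latter counts were 1 higher and 0 lower of 10. The multiciliated list summed per array was 115 to 133 on ED arrays, 124 to 219 on EDRE arrays and 150 to 167 on EDRL arrays. Its sum was thus higher on every EDRL array than on every ED array, and its part in the members' values was not tested. Among single probes measured on all 6 arrays, 44.6% had ED and EDRL groups that did not overlap. Tubulins supplied most of the sum of the multiciliated list. Among defining markers, Ccno was higher in EDRL by 0.87, under the fold for a call (from 1.84 ± 0.09 to 2.70 ± 0.15, SD, n = 3 each, limma adjusted p = 0.0026). Its groups did not overlap, as for those 44.6% of probes. Mcidas was at -5.32 ± 0.29 in ED and -4.66 ± 0.23 in EDRL, and Deup1 was at -6.58 ± 0.16 and -6.95 ± 0.14. Sntn differed by -0.83 in EDRL and Tppp3 by -0.49, neither called. The spermatogenic list summed to 4.88 to 5.87 on ED arrays, 4.29 to 11.9 on EDRE arrays and 5.09 to 5.45 on EDRL arrays, and its part in the values of Drc7 was not tested. Of the left-right axis list limma called 0 genes after irradiation of either cell type, with at most 1 in each direction at an unadjusted p under 0.05. In ED against ES 7 of 10 tested were lower and 2, Invs and Pkd2, were higher, beside 26.7% and 14.9% of all genes. Of the lower ones, Nodal, Lefty1 and Cfc1 were well above background on 0 of 3 ED arrays and Lefty2 on 1 of 3. These genes were tested only because they were detected in ES, and their ED levels are not exact.

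Because Pierce1 is known as a p53 target, a list of 38 other p53 targets was set beside it. The list was drawn up with earlier results of these data known. Some of its genes, such as Rprm, Btg2 and Bax, are among those the paper lists as altered by radiation in differentiated cells. The shares of this list beside all genes are therefore a description, and the part of p53 in the members' changes was not tested. In EDRL 15 of 33 tested targets rose and none fell, 45.5% against 1.4% of all genes, with a median change of 0.86 against -0.09 for all probes. Rprm, which arrests cells in G2, rose by 3.55 (adjusted p = 1.04e-06), and Fas, the death receptor, by 2.68 and 2.25 on its called probes (adjusted p = 1.16e-05 and 2.19e-05). Sytl1, a vesicle trafficking gene, rose by 2.41 (adjusted p = 0.00346), Dcxr, a sugar reductase, by 2.32 (adjusted p = 0.0021), and Trp53inp1, a p53 cofactor, by 2.22 (adjusted p = 1.60e-04). The 5.17 of 1700007K13Rik was above all of these, but the gene was chosen for the size of that rise. With scan time as a random block 5 of the 33 were called, beside 33 higher and 0 lower of all 23209 genes.

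At 15 min 4 of 32 tested p53 targets rose in EDRE and none fell, 12.5% against 2.23% of all genes called higher, and without EDRE replicates 2 and 3 the count was 2. With scan time as a random block, and with the 2 groups fitted alone, 0 were called. The 4 were Btg2 at 1.87, Ddit4l at 1.55, Trp53inp1 at 1.17 and Bax at 1.14 (adjusted p = 0.0267, 0.0039, 0.0196 and 0.0479). In stem cells limma called 0 of 33 in ESRE, where 3 were higher at an unadjusted p under 0.05, and 5 of 34 rose in ESRL with none lower, 14.7% against 0.691% of all genes called higher. At an unadjusted p under 0.05, 13 of the 34 were higher and 6 lower in ESRL, beside 6985 of all 27966 probes in either direction. With scan time as a random block 0 of the list were called in ESRL. The 5 were Trp73, Trp53inp1 (1.15), Fas (1.08 on 1 probe), Rprm (1.06) and Ddit4l (1.05). The median over the list in ESRL was 0.37 against -0.16 for all probes, and 1700007K13Rik was at 1.30.

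**Figure D4:**
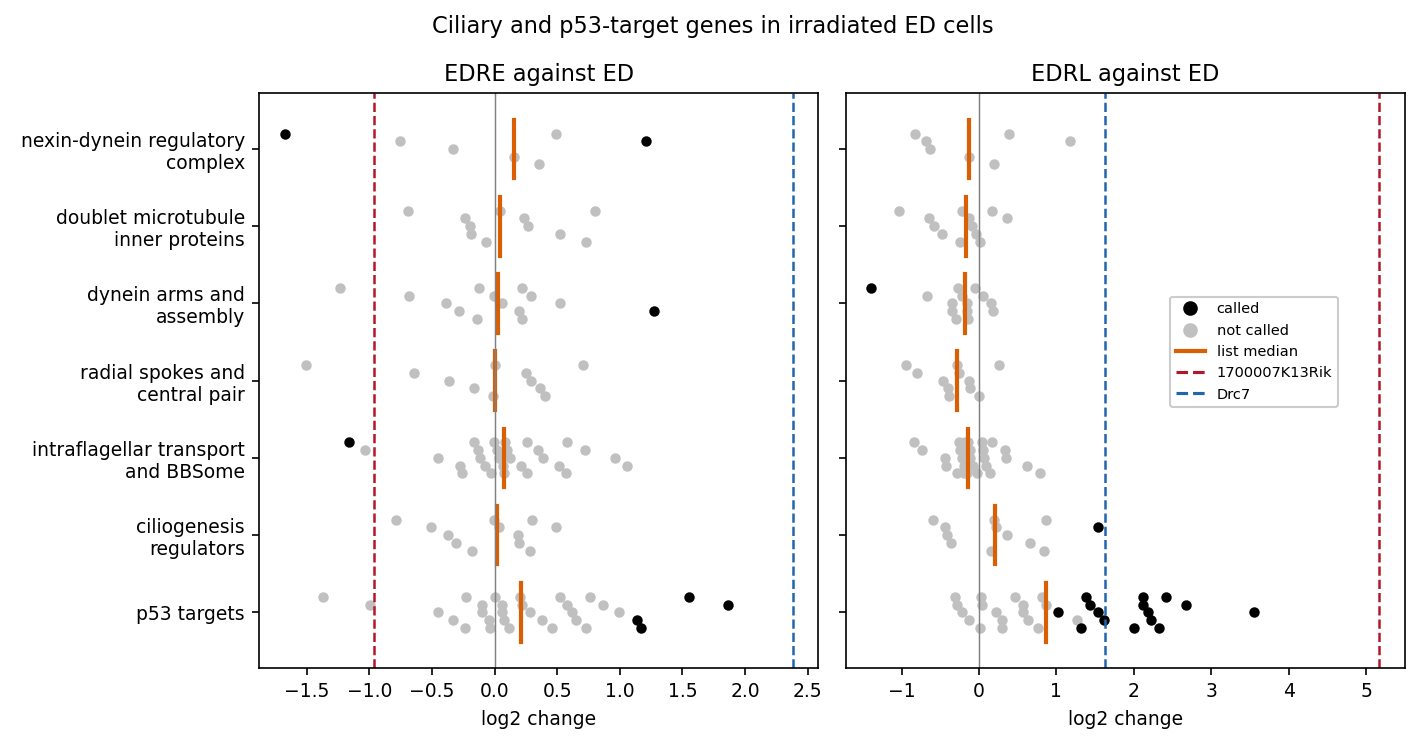
Log2 change of every tested gene of 7 lists in EDRE against ED (left) and EDRL against ED (right), with 1 point per gene at its brightest probe, black where at least 1 probe of the gene was called, and an orange line at the list median. Dashed lines mark 1700007K13Rik and Drc7. In EDRL the called genes are those of the p53 list (15 of 33), Trp73 among the ciliogenesis regulators and Lrrc6 among the dynein genes. 1700007K13Rik, chosen for its rise in EDRL, lies at 5.17 to the right of every point.

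Genes next to each member on its chromosome were read in the same fit. Mrps2, which overlaps 1700007K13Rik, differed by 0.10 in EDRL (limma adjusted p = 0.93) and rose by 1.11 in EDRE (adjusted p = 0.0394). That call was lost with scan time as a random block and with only the 2 groups compared, under which no gene was called higher in EDRE. Ppp1r26, on the other side, differed by 0.17 in EDRL (adjusted p = 0.889), and the 3 probes of Olfm1 by 0.43 to 0.51, none called. Beside Drc7, Adgrg1 differed in EDRE and EDRL by -0.24 and 0.51 (adjusted p = 0.76 and 0.635). The 3 probes of Kifc3, a kinesin gene, were 0.75 to 0.98 higher in EDRE, under the fold for a call, and -0.40 to -0.26 in EDRL. Gbgt1 and Adgrg3 were not well above background in ED cells and were not tested there.

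The genes whose pattern was most like each member's were ranked by Pearson's r of log2 levels. The arrays share groups, scan times and cell type differences, so r is a description. Over the 17 arrays with a usable 1700007K13Rik spot and 18366 probes, the highest were AK042183 (r = 0.98), uc007vrj (0.98), NM_007955 (0.98), Oas1f (0.97) and uc009rlb (0.97). With outlier spots kept, on 18 arrays, Sytl1 of the p53 list came second (0.98). Over the 9 arrays of ED, EDRE and EDRL they were Palm3 (0.99), AK042183 (0.99), Lrrc75b (0.99), Irf5 (0.99) and Cutal (0.98). Palm3, for example, had mean levels of -5.65 in ED, -5.96 in EDRE and -3.01 in EDRL.

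For Drc7 over 18 arrays and 18276 probes the highest were Ggct (r = 0.93), AK007284 (0.93), Ssh3 (0.92), a cofilin phosphatase gene, Casq2 (0.91) and Sostdc1 (0.91). Ssh3 had mean levels of 0.13 in ES, -1.71 in ED, -0.62 in EDRE and -0.88 in EDRL. With outlier spots kept, Ninl, which encodes a centrosomal protein, came first (0.95) and the immediate early gene Fos second (0.94). Over the 9 arrays of ED, EDRE and EDRL they were uc007tah (0.98), AK019300 (0.96), Itih3 (0.96), Myh6 (0.95) and AK013450 (0.95). None of these genes was common to both members. The members themselves had r = 0.54 with each other over 17 arrays and r = 0.02 over the 9 arrays of ED, EDRE and EDRL. These values rest on EDRE replicates 2 and 3, on which 1700007K13Rik was not well above background: without them r was 0.85 over 15 arrays and 0.66 over the 7 arrays of those groups. The order of the genes named here rests on them too. Without them 0 of the 5 genes nearest to 1700007K13Rik over all arrays, and 0 of 5 over the ED, EDRE and EDRL arrays, were again among the nearest 5, and for Drc7 1 of 5 in each case, Ggct and Itih3. The first places were then taken by Kcnj4 (r = 0.99) and NM_007955 (1.00) for 1700007K13Rik and by Ggct (0.98) and Adam6b (0.99) for Drc7.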

How the data were processed

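The deposited scanner files hold, for each spot of a single-colour Agilent array, the processed signal, a background-subtracted intensity written by the authors' Agilent Feature Extraction software (version 9.1 per the labels, 10.7.3.1 per the file headers), with marks for outlier spots and for signals well above background. The authors also deposited a table of log2 values, which equalled the log2 of the processed signals, floored at 5, minus an offset per array (column medians 0.57 to 0.72) and was used as an alternative. The genome build of the authors is not given in the sources used here. Probes were named through their accessions in RefSeq, which named 22216 of 37246 probes, and others kept the name in the file. The log2 of the processed signal was taken minus that of the 75th percentile of the 37831 non-control spots of the array. Spots marked as outliers were left out, and repeated spots of a probe were averaged. A probe was tested where, in either group compared, its signal was well above background on each of the 3 arrays. The test was limma 3.58.1 (R 4.3.3), fitted over all 18 arrays. P-values were adjusted by Benjamini-Hochberg over all probes of a comparison, and a call needed both a log2 change past 1, up or down, and an adjusted p below 0.05. A gene was called where at least 1 of its probes was.

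The members, gene lists and tests were chosen with earlier results of these data known. Other genes were named by rule: the 5 most like each member, all tested subunits of the complex of Drc7, up to 5 of the largest calls per list, the nearest genes with a probe (1 of them is not reported here), and the 3 largest rises next to each member. Trp73 and Foxj1 in ESRL, Saxo2, Spag8 and markers without a call fall outside it and were chosen after their values were seen. Array numbers limit the precision, 3 per group. The fit was also run on simulated data with independent noise and no scan time effect. That run cannot show whether calls hold against scan time. Alternatives covered background correction, scaling, outlier spots, detection filters, scan time, arrays fitted and single arrays left out. Python 3.11.15 with pandas 2.3.3 made the tables.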

Additional observations from a re-analysis of the deposited data

Results flagged for a closer look

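Drc7 was listed here because its arrays lay on opposite sides of their controls in the 2 cell types. At 15 min all 3 EDRE arrays lay above the ED mean and all 3 ESRE arrays below the ES mean, and the mean changes, 2.38 and -0.24, differed by 2.62 log2 units. At 4 h EDRL and ESRL lay on opposite sides likewise, with mean changes of 1.63 and -0.10 that differed by 1.73, but the sign in ESRL turned under 4 alternatives. The differences were not tested, since the ED changes chose the gene. Neither stem cell change passed its own test, so no movement of Drc7 in stem cells is shown. Outliers within a group were not sought, because each group held 3 arrays.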

How the results depend on the processing

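Values are log2 differences unless counts are named. 1700007K13Rik in EDRL against ED (5.17) was 4.41 with normexp, 5.32 with arrays set to their medians, 4.95 with quantile normalization, 5.32 in the authors' value table and 4.28 with scan time as a random block. Drc7 in EDRL (1.63) was 1.06 with normexp. The cause was not tested. In ESRL 1700007K13Rik (1.30) passed in the authors' value table (1.70), by the methods' t-test before adjustment (1.30) and without EDRE replicates 2 and 3 (1.30), the last from a smaller spread. In ESRE it passed by the methods' t-test before adjustment (0.26). Directions turned for 1700007K13Rik in EDRE (-0.97) with normexp (0.95) and without EDRE replicates 2 and 3 (0.41), and for Drc7 in ESRL (-0.10) with normexp (0.18), medians (0.21), quantile normalization (0.11) and the authors' table (0.21), none past the threshold. Single arrays left out gave -1.66 to -0.44 for 1700007K13Rik in EDRE.

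Called p53 targets in EDRL (15) numbered 5 with scan time as a block. In EDRE (4) they numbered 8 in the authors' table, 0 with the scan block, 0 with the 2 groups alone and 2 without EDRE replicates 2 and 3. In ESRL (5) they numbered 1 with normexp, 8 with medians, 9 in the authors' table, 0 with the scan block and 1 with the 2 groups alone. Called axoneme genes in EDRL (1) numbered 0 with normexp, 2 with medians, 0 for probes above background on all 6 arrays, 0 with the scan block and 3 with the 2 groups alone. In EDRE (3) they numbered 6 with normexp, 7 with no filter, 0 with the scan block and 0 with the 2 groups alone.

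Same-numbered arrays did not deviate together (correlations of -0.43 to 0.30), so numbers are only names. With the replicate block, 1700007K13Rik in ESRL was 1.19 (adjusted p = 0.156), and no member's call changed. Leaving out EDRE replicates 2 and 3 (for the genes nearest in pattern too) and scaling by bright probes were added after seeing the data. For 1700007K13Rik in EDRE no value exists when all 6 arrays must be above background.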
